A study of Homo sapiens with 4 samples.

Results

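MYC, its dimerization partner and antagonists, and the nucleolar machinery that makes ribosomes were examined as 40 named genes in HCT116, a long-established human cell line from a colon carcinoma. The 40 symbols were chosen by name and all were found among 60766 features of the deposited tables. They comprise 6 genes of the MYC network, 6 of RNA polymerase I transcription, 7 of small nucleolar ribonucleoproteins, 5 of small subunit processing, 10 of large subunit processing, 5 other nucleolar proteins and 1 mitochondrial transcription factor. RNA was sequenced from 2 control libraries and 2 libraries with ARID1A knockdown, where the sample names denote a short hairpin RNA (shARID1A). Both groups were the same line grown in RPMI1640 with serum. The labels name no hairpin sequence, control construct, clone or time after knockdown. ARID1A is a DNA-binding subunit of SWI/SNF, a complex that moves nucleosomes, and the stated question of the study was how its loss bears on immune functions.

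MYC is a transcription factor that binds DNA as a dimer with MAX, most often at the E-box CACGTG. MXD1, MXI1 and MNT also pair with MAX, bind the same element and repress. Among the best known targets of MYC are genes for RNA polymerase I, which transcribes the ribosomal RNA precursor, and for the proteins that modify, cut and fold that precursor in the nucleolus. In colon carcinoma, MYC is a classical target of WNT and beta-catenin signalling.

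Expression is given as FPKM, fragments scaled by transcript length and library depth, so levels can be compared between genes. The summed FPKM per library ranged from 781729.8 to 814439.6. The steps between low values placed the depth between 68750000 and 75250000 fragments. Ribosomal protein genes took 32.03% and 32.41% of summed FPKM in control libraries against 27.77% and 28.81% after knockdown, and mitochondrially encoded genes 4.35% and 4.29% against 6.04% and 5.65%. ARID1A itself went from 11.1 and 11.4 FPKM to 7.05 and 6.13 FPKM, a log2 change of -0.69 (SE 0.0774, limma adjusted p = 0.00438; exact two-sided permutation p = 0.333, the smallest that 2 libraries against 2 allow). Of 9 colon epithelial markers 7 had a mean of at least 1 FPKM, CDX1 was at 0 and VIL1 at no more than 0.207 FPKM. Their sum was 3027.1 and 2922.3 FPKM in control libraries against 4017.5 and 4173.0 FPKM after knockdown, as EPCAM fell from 312 to 144 FPKM while KRT8, KRT18, KRT19 and KRT20 rose; their part in the results was not tested. Summed FPKM of 8 leukocyte markers was 0.533 to 1.19 and of 4 endothelial markers 0.163 to 0.209. For 7 fibroblast markers the sum was 3.77 to 6.43 FPKM, nearly all of it COL1A1. Whether the replicates were grown separately is not stated, so each p-value reflects the spread of these libraries, possibly a technical one. In bulk RNA, fewer cells with a transcript and less transcript per cell cannot be told apart.

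Of the 40 genes, 39 had a mean of at least 1 FPKM and were tested. In the ARID1A knockdown 19 of them rose, 0 fell and 20 did not pass the threshold (limma on log2(FPKM + 1), adjusted p under 0.05 over 13605 tested features). Across all tested features 18.2% rose and 18.9% fell, 37.1% in all. Unadjusted limma p was under 0.05 for 22 of the 39, and for 6592 of the 13605 tested features. The changes were small: the 19 genes were 9.8% to 114% higher in mean FPKM, with a median of 20%. The median log2 change was 0.14 over the 39 genes and 0.00 over all tested features, and the sign was positive for 31 and negative for 8. In either direction, groups did not overlap for 72.3% of all tested features. Control and knockdown libraries did not overlap, with the knockdown higher, for 29 of the 39, where this held for 35.8% of all tested features. They did not overlap with the knockdown lower for 4 genes, MXI1, FBL, UTP20 and NPM1 (36.5% of all tested features).

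**Figure D1:**
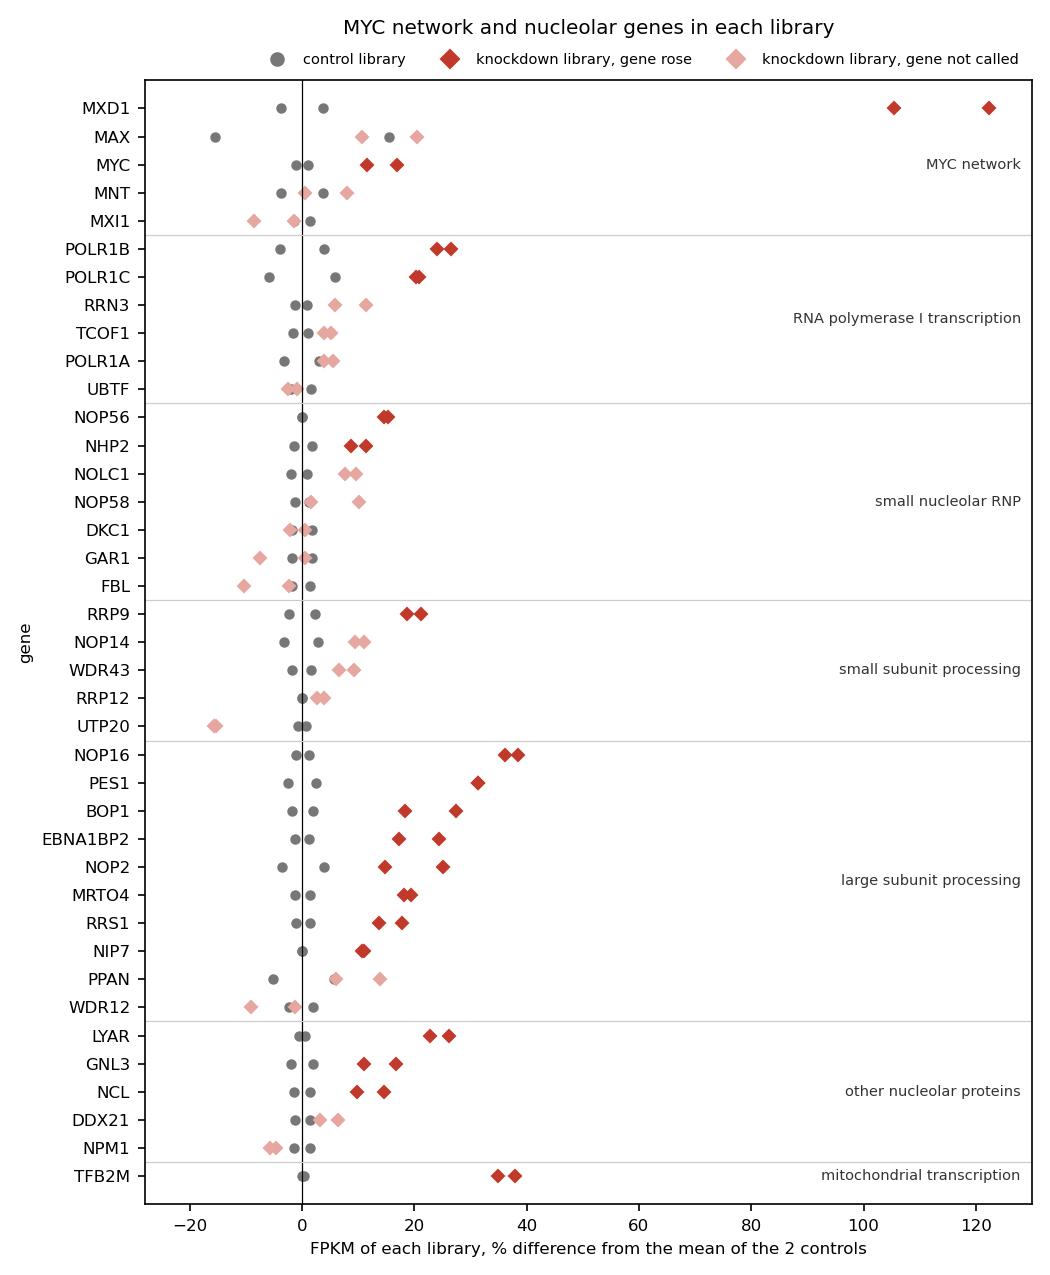
FPKM of each library as a percent difference from the mean of the 2 controls (x axis) for the 39 tested genes (y axis), grouped by role; circles are control libraries and diamonds knockdown libraries, dark where the gene rose. MXD1 stands apart at 114% in the mean, and the other genes that rose lie between 9.8% and 37.1% in the mean.

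These counts depend on scaling and on the number of libraries. When libraries were scaled to the summed FPKM without mitochondrial and ribosomal protein genes, 11 members rose and 3 fell (MXI1, FBL and NPM1), and the median log2 change of the members was 0.06. With all 4 libraries kept, this scaling ended the calls of MYC, POLR1C, NHP2, NOP2, RRS1, NIP7, NCL and GNL3. The same scaling moved the median of all tested features to -0.08 and the share of calls that were rises from 49.2% to 32.2%. With it, 1685 of the 13605 tested features rose and 3541 fell. Leaving out 1 library keeps only 1 in its group, and fewer of all tested features were then called too. In those fits the median log2 change of the members was 0.14 to 0.15. Leaving out control replicate 1 left 6 members that rose, and leaving out control replicate 2 left 7. Leaving out knockdown replicate 1 left 12, and knockdown replicate 2 left 13. Under all alternatives in which they were tested, 5 genes kept the rise: MXD1, NOP16, PES1, LYAR and TFB2M.

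**Figure D2:**
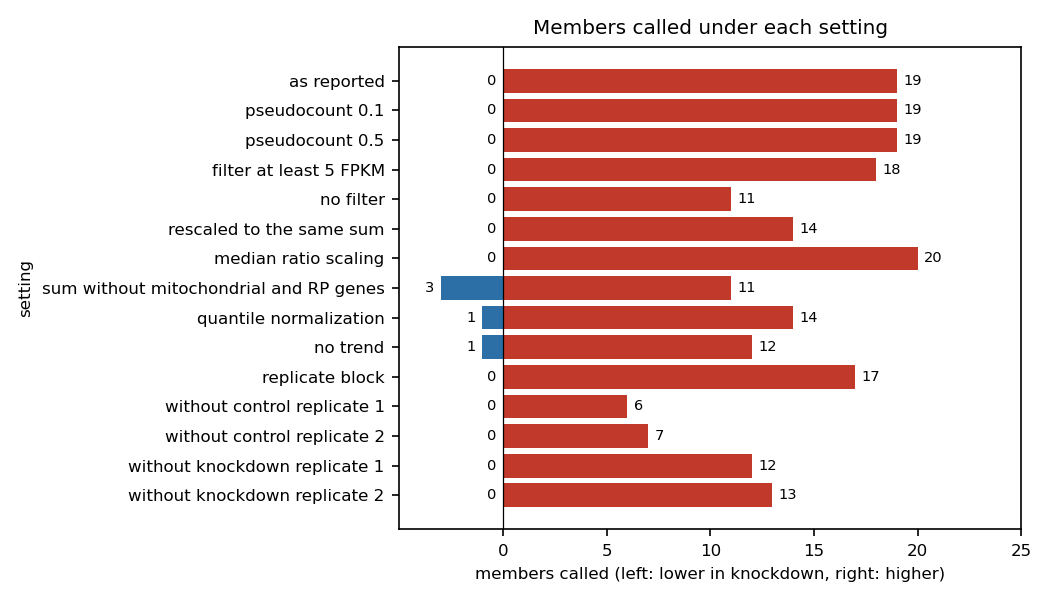
Number of members called (x axis; right, higher in knockdown; left, lower) under each alternative (y axis). Between 6 and 20 rose, and members were called lower under 3 alternatives.

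Within the MYC network, MYC rose slightly and its antagonist MXD1 rose most. The MYC gene (GRCh38, chromosome 8, 127735434 to 127742951) had 288 and 282 FPKM in control libraries against 318 and 333 FPKM after knockdown. Both knockdown libraries lay above both controls, as for 35.8% of all tested features, and MYC ranked 300 among all features by mean level. The mean went from 285 ± 4.08 to 325 ± 10.3 FPKM (SD, n = 2), 14.1% higher, with a log2 change of 0.19 (SE 0.0383, limma adjusted p = 0.0205; exact permutation p = 0.333). The MYC call was lost without control replicate 1, control replicate 2 or knockdown replicate 2 (adjusted p = 0.0573 to 0.128), and over all alternatives adjusted p ran from 0.0138 to 0.154 with a log2 change of 0.08 to 0.22. MXD1, a MAX partner usually associated with differentiation, was at 1.91 and 1.77 FPKM in control libraries and 4.09 and 3.78 FPKM in the knockdown, with its gene on chromosome 2 (69897688 to 69942945). That is a 2.14-fold higher mean from a low level (log2 change 0.80, SE 0.0869, limma adjusted p = 0.00411). The MXD1 locus overlaps SNRNP27, which fell from 43.2 to 38.5 FPKM. No strand setting is stated, and how far the reads of MXD1 and SNRNP27 mix was not tested.

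The remaining network genes did not pass. MAX, the shared partner, was at 42.7 and 58.3 FPKM in control libraries and 60.8 and 55.9 FPKM in the knockdown. The controls differed from each other more than the group means did, and the 95% interval of the log2 change ran from -0.18 to 0.61. Without control replicate 2 the MAX log2 change was 0.44 (adjusted p = 0.0465), and without control replicate 1 it was 0.00. MXI1, the most abundant antagonist, was at 85.2 and 87.7 FPKM against 79.1 and 85.2 FPKM (log2 change -0.07, limma adjusted p = 0.291). MNT was at 8.17 and 8.8 FPKM against 9.16 and 8.53 FPKM, with overlapping groups (limma adjusted p = 0.56). MYCN, the neuronal paralog, was listed at 0 in all 4 libraries. A count of 3 fragments would give 0.0172 to 0.0189 FPKM for its transcript at the estimated depth, a limit that covers counting error only.

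The order of mean levels was MYC, MXI1, MAX, MNT and MXD1 in both groups. The ranges of neighbours did not meet within a group, whichever of these 5 is taken. The summed level of MXD1, MXI1 and MNT was 95.3 and 98.3 FPKM in control libraries and 92.3 and 97.6 FPKM after knockdown, with overlapping groups. The ratio of MYC to that sum was 3.02 and 2.87 in control libraries against 3.44 and 3.41 after knockdown (2.95 ± 0.106 to 3.43 ± 0.0253, SD, n = 2; exact two-sided permutation p = 0.333, the smallest possible). That ratio depends on which antagonists are summed. The MXD family also holds MXD3, at 9.48 and 9.03 against 9.12 and 10.9 FPKM, and MXD4, at 20.8 and 20.1 against 31.3 and 32.1 FPKM. With both added, the sum was 126 and 127 FPKM against 133 and 141 FPKM, and the MYC ratio 2.29 and 2.21 against 2.4 and 2.37 (2.25 ± 0.0556 to 2.38 ± 0.0207, SD, n = 2; exact permutation p = 0.333). The difference in the ratio was then 0.13 in place of 0.48. The ratio of MYC to MAX was 6.74 and 4.84 against 5.23 and 5.95, so its groups overlapped.

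**Figure D3:**
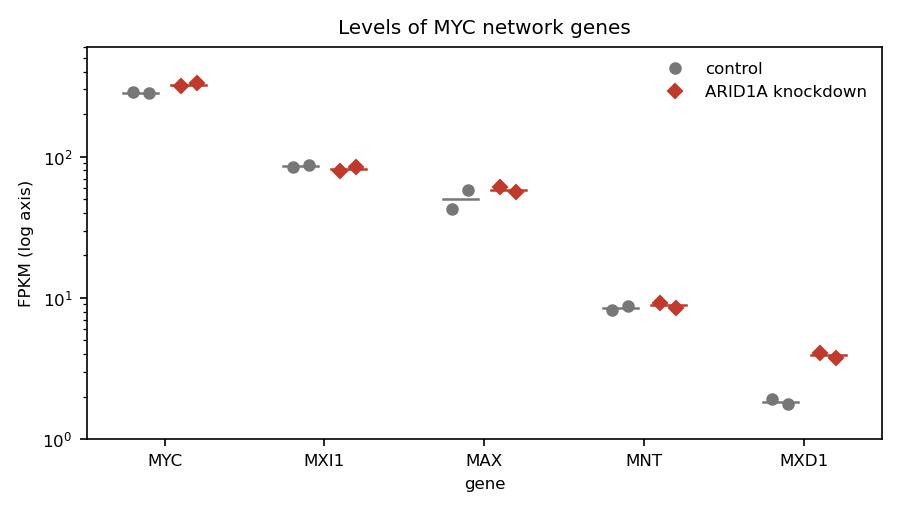
FPKM on a log axis (y) of the 5 detected MYC network genes (x); points are libraries and lines the means of 2. MYC was the highest in both groups, and MXD1 the lowest and the one with the widest gap between groups.

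The element that MYC and its antagonists read was looked up in RefSeq promoters (GRCh38.p14, from 250 bases before to 50 after each start), which were matched for 33 of the 40 genes. CACGTG, which reads the same on both strands, was present in 10 of 33, or 30.3%. Over all 27305 promoters in the table the share was 7.43%, and over the 9868 of tested genes 10.2%. Median GC content was 65% in the members and 65.7% in tested genes. The genes were chosen partly for being known MYC targets, so the share describes that choice and is no independent result. All 4 matched small subunit processing genes held the element (RRP9, NOP14, UTP20 and WDR43), as did 4 of 8 matched large subunit genes, 1 of 5 small nucleolar RNP genes and 1 of 5 in the MYC network. None of 5 RNA polymerase I genes held it. Of the members that rose 5 of 16 promoters held it, and of those not called 5 of 16. When CATGTG and CACGCG on either strand were also counted, 17 of 33 members (51.5%) and 31.4% of tested genes held a match. Of the 5 RNA polymerase I genes 4 then held one, so their lack of a match depends on the motif counted.

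The 10 matches are shown with their surroundings because 8 of them begin within 40 bases of the annotated start. They are written on the gene's strand from 5′ to 3′, with the E-box in capitals. The windows are 30 bases long.
RRP9 (chr3:51941892-51941921, minus strand): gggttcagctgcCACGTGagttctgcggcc
UTP20 (chr12:101280083-101280112, plus strand): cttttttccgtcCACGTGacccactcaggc
WDR43 (chr2:28894658-28894687, plus strand): cgcacggacgaaCACGTGgctgcagcgggg
NOP14 (chr4:2963374-2963403, minus strand): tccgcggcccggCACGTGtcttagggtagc
PES1 (chr22:30591880-30591909, minus strand): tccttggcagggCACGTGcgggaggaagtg
MRTO4 (chr1:19251807-19251836, plus strand): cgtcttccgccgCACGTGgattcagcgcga
NOP2 (chr12:6568242-6568271, minus strand): gctaggtccggattgCACGTGgagggccgc
EBNA1BP2 (chr1:43172790-43172819, minus strand): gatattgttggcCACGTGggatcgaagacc
FBL (chr19:39846356-39846385, minus strand): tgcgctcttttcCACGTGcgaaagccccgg
MNT (chr17:2401236-2401265, minus strand): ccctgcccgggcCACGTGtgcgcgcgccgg
A match describes the letters only, and no binding was measured here.

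RNA polymerase I genes moved little, and 2 of 6 rose (33.3%, beside 18.2% of all tested features). POLR1B, the second-largest subunit of the enzyme, was at 24.3 and 26.3 FPKM in control libraries and 32 and 31.4 FPKM in the knockdown (log2 change 0.31, SE 0.0526, limma adjusted p = 0.0123). POLR1C, a subunit shared with RNA polymerase III, was at 66.5 and 59.1 FPKM against 75.9 and 75.5 FPKM (log2 change 0.27, SE 0.0639, adjusted p = 0.0315). For both genes every knockdown library exceeded every control, as for 35.8% of all tested features. POLR1A, which holds much of the catalytic site, was at 5.53 and 5.88 FPKM against 5.93 and 6.02 FPKM and did not pass (95% interval of the log2 change -0.11 to 0.22). The promoter factor UBTF was at 35.1 and 36.4 FPKM against 34.9 and 35.5 FPKM, with overlapping groups (interval -0.13 to 0.08). RRN3, which brings the polymerase to the promoter, was at 34.7 and 34 FPKM against 38.3 and 36.4 FPKM (adjusted p = 0.104), and TCOF1, a nucleolar phosphoprotein, at 17.9 and 17.4 against 18.4 and 18.6 FPKM (adjusted p = 0.327). The median log2 change of the group was 0.09. The POLR1B call was lost without control replicate 1 or knockdown replicate 1 (adjusted p = 0.0552 to 0.064), and the POLR1C call without control replicate 2 or either knockdown replicate (0.0911 to 0.102). POLR1C shares its locus with XPO5 and YIPF3, and RRN3 with PDXDC1; RRN3 also has 3 pseudogenes in the tables.

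Small nucleolar ribonucleoproteins guide methylation (box C/D) and pseudouridylation (H/ACA) of ribosomal RNA, and 2 of 7 genes for their proteins rose. That is 28.6%, beside 18.2% of all tested features. NOP56, a box C/D core protein, was at 130 and 130 FPKM in control libraries and 149 and 150 FPKM in the knockdown (log2 change 0.20, SE 0.0319, limma adjusted p = 0.0103). The H/ACA protein NHP2 was at 285 and 294 FPKM against 322 and 314 FPKM (log2 change 0.13, adjusted p = 0.0404), the call closest to the threshold among the 19. With all 4 libraries under quantile normalization, the NHP2 log2 change was 0.02 (limma adjusted p = 0.735). Scaled without mitochondrial and ribosomal protein genes it was 0.05 (adjusted p = 0.365). The partners of these proteins in the same particles did not pass. NOP58, the NOP56 paralog, was at 82.2 and 84.3 FPKM against 84.5 and 91.6 FPKM. FBL, the methyltransferase of the box C/D particle, was at 340 and 351 FPKM against 310 and 338 FPKM (log2 change -0.10, adjusted p = 0.223). DKC1, the pseudouridine synthase, was at 65.7 and 63.4 FPKM against 65 and 63.2 FPKM, and GAR1 at 49.4 and 47.6 against 48.8 and 44.9 FPKM. The difference in response between NOP56 and FBL, or between NHP2 and DKC1, was not tested. NOLC1, a chaperone of these particles, lay just outside the threshold (105 and 102 FPKM against 114 and 112 FPKM, adjusted p = 0.0569). The NOP56 call was lost without either control replicate (adjusted p = 0.0762 and 0.0769), and the NHP2 call without any 1 of the 4 libraries (0.0677 to 0.208).

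Small subunit processing gave 1 rise among 5 members (20%), close to the 18.2% of all tested features. RRP9, a protein of the particle that starts cleavage of the precursor, was at 36.1 and 34.5 FPKM in control libraries and 41.9 and 42.8 FPKM in the knockdown (log2 change 0.26, SE 0.0427, limma adjusted p = 0.0122). The RRP9 call was lost without either control replicate or without knockdown replicate 2 (adjusted p = 0.0521 to 0.0762). NOP14 and WDR43, both of the same early processing complex, were at 28.1 and 26.4 against 29.9 and 30.3 FPKM and at 44.9 and 46.4 against 49.9 and 48.7 FPKM (adjusted p = 0.0831 and 0.0942). In both, the knockdown libraries lay above the controls, as in 35.8% of all tested features, without passing the threshold. NOP14 overlaps its antisense gene NOP14-AS1, which rose from 5.45 to 7.2 FPKM, and how far their reads mix was not tested. RRP12, a factor of late maturation and export, was at 15 and 15 FPKM against 15.6 and 15.4 FPKM. UTP20 was the lowest of the processing genes and had the most negative log2 change of all members. It was at 2.75 and 2.71 FPKM in control libraries and 2.31 and 2.3 FPKM in the knockdown, without overlap (log2 change -0.18, SE 0.0813, adjusted p = 0.155; 0.0495 with no mean-variance trend).

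Large subunit processing held the most rises among the role groups: 8 of 10 members passed, with a median log2 change of 0.25. Of all tested features 18.2% rose. Among other large subunit genes, given below, 16 of 48 rose. With scaling to the sum without mitochondrial and ribosomal protein genes, 5 of the 10 members rose, with a median of 0.17. With no filter 6 of the 10 rose, beside 1373 of 29031 features, and with no trend 6, beside 2146 of 13605. All calls here but those of NOP16 and PES1 were lost without either control replicate, as given below. The median log2 change was 0.21 to 0.26 with 1 library left out. NOP16 (chromosome 5, 176383938 to 176388975) had 45.8 and 44.7 FPKM in control libraries and 62.6 and 61.5 FPKM in the knockdown. The knockdown mean was 37.1% higher (log2 change 0.45, SE 0.037, limma adjusted p = 0.00212), and the gap between groups was far wider than that between replicates. PES1 (chromosome 22, 30576625 to 30607083) went from 48.7 and 46.3 FPKM to 62.4 and 62.4 FPKM (log2 change 0.38, SE 0.0413, adjusted p = 0.00396).

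PES1 forms the PeBoW complex with BOP1 and WDR12, which is needed to mature the large subunit RNA. BOP1 was at 63.6 and 66.1 FPKM in control libraries and 76.7 and 82.6 FPKM in the knockdown (log2 change 0.29, SE 0.0506, limma adjusted p = 0.0137). WDR12 was at 33.5 and 35 FPKM against 33.9 and 31.2 FPKM, with overlapping groups and an interval of -0.22 to 0.08. The intervals of PES1 (0.28 to 0.49) and BOP1 (0.16 to 0.42) did not meet that of WDR12, but the difference itself was not tested. WDR12 is listed over a long locus that also holds CARF, at a mean of 1.3 FPKM in control libraries and 1.02 FPKM in the knockdown.

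The 5 other large subunit genes with calls were closer together. EBNA1BP2 was at 86.2 and 84.1 FPKM against 99.9 and 106 FPKM (limma adjusted p = 0.0111), and MRTO4, a ribosome stalk assembly factor, at 34.1 and 33.2 against 40.1 and 39.7 FPKM (0.0114). NOP2, a methyltransferase of large subunit RNA, was at 40 and 37.1 against 48.2 and 44.2 FPKM (0.0348), and RRS1 at 36.4 and 35.5 against 40.8 and 42.3 FPKM (0.02). In each of these 4 genes the groups did not overlap with the knockdown higher, as in 35.8% of all tested features. NIP7 was at 46.8 and 46.8 FPKM against 52 and 51.8 FPKM, a difference of 10.8% between very tight groups (log2 change 0.15, adjusted p = 0.0321). PPAN was at 24.2 and 21.7 against 24.3 and 26.1 FPKM and did not pass (0.204); its locus also holds a PPAN-P2RY11 readthrough row, so its reads are uncertain. Leaving out either control ended the calls of BOP1 (adjusted p = 0.0668 to 0.0874), EBNA1BP2 (0.0645 to 0.0791), MRTO4 (0.0605 to 0.0763), NOP2 (with knockdown replicate 1 as well, 0.0794 to 0.156) and RRS1 (with knockdown replicate 2 as well, 0.0738 to 0.109). The NIP7 call was lost without any 1 library (0.085 to 0.138). Loci also overlap for NOP16 and HIGD2A, PES1 and TCN2, BOP1 and SCX, NIP7 and COG8, and EBNA1BP2 and TMEM125, of which TMEM125 rose from 7.08 to 9.01 FPKM.

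**Figure D4:**
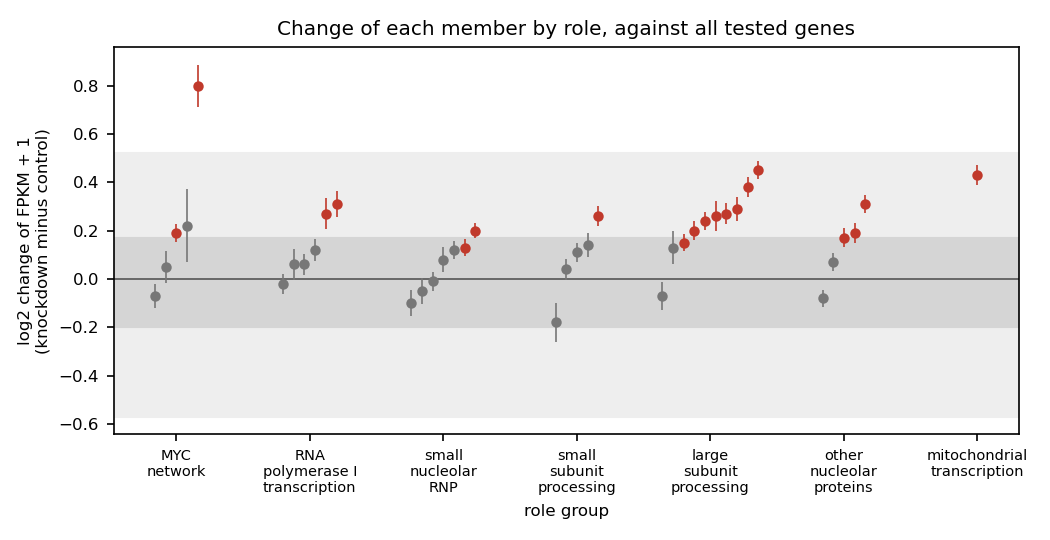
Log2 change of FPKM + 1 (y axis, knockdown minus control) for each member by role group (x axis), with bars of 1 SE; the dark band spans percentiles 25 to 75 and the light band percentiles 5 to 95 of all tested features, and red marks genes that rose. Most large subunit genes lie above the dark band (upper edge 0.17), while the small nucleolar RNP genes lie in or near it.

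Of the 5 other nucleolar proteins 3 rose (60%, beside 18.2% of all tested features). LYAR, a nucleolar zinc finger protein encoded on chromosome 4 (4267701 to 4290154), had 43.4 and 43.8 FPKM in control libraries and 55 and 53.5 FPKM in the knockdown (log2 change 0.31, SE 0.0372, limma adjusted p = 0.0053). Nucleolin, from NCL, was at 355 and 345 FPKM against 401 and 384 FPKM (log2 change 0.17, adjusted p = 0.0296), and nucleostemin, from GNL3, at 214 and 206 against 245 and 233 FPKM (log2 change 0.19, adjusted p = 0.0282). All 3 had groups that did not overlap with the knockdown higher, as did 35.8% of all tested features. With all 4 libraries under quantile normalization, NCL (log2 change 0.06, limma adjusted p = 0.336) and GNL3 (0.12, adjusted p = 0.0741) were not called. NPM1, the nucleolar chaperone and the most abundant member, was at 1173.1 and 1206.4 FPKM against 1134.4 and 1122.6 FPKM (log2 change -0.08, adjusted p = 0.153). NPM1 has 46 pseudogene rows in the tables, the highest with a mean of 95.9 FPKM, so its level is uncertain. The RNA helicase gene DDX21 was at 74.8 and 72.9 FPKM against 78.5 and 76.1 FPKM (adjusted p = 0.23). The NCL and GNL3 calls were both lost without either control or without knockdown replicate 1 (adjusted p = 0.0782 to 0.167 and 0.0796 to 0.154). NCL and GNL3 also belong to the 7 members whose loci hold small nucleolar RNA rows, 23 in all; the others are NOP56, NOP58, DKC1, WDR43 and PPAN, and 3 of the 7 rose.

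TFB2M is the outlier by function, a transcription factor of mitochondrial DNA. It was at 23.3 and 23.2 FPKM in control libraries and 32 and 31.3 FPKM in the knockdown, from a gene on chromosome 1 (246540561 to 246566261). This 36% rise (log2 change 0.43, SE 0.0397, limma adjusted p = 0.00274) went beside the larger mitochondrial share of summed FPKM given above; its part in that share was not tested.

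Summed over the 34 members outside the MYC network, the level was 3712 and 3724 FPKM in control libraries and 3925 and 3905 FPKM in the knockdown. Without NPM1 it was 2538 and 2518 against 2790 and 2783 FPKM. Scaled to the sum without mitochondrial and ribosomal protein genes, the level of the 34 was 3795 and 3859 against 3863 and 3751, so the groups overlapped. Without NPM1 the scaled level was 2595 and 2609 against 2746 and 2673. Cytosolic ribosomal protein genes went the other way in number: of 85 tested, 3 rose and 35 fell, with a median log2 change of -0.15. The part of this shift in the FPKM of other genes was not tested, beyond the rescaling given above.

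Other genes of the same pathways were taken from lists set by function: 218 were tested in 8 lists, of which 77 rose and 16 fell. Each list count below given without an alternative is to be read beside the 18.2% risen and 18.9% fallen of all tested features. With scaling without mitochondrial and ribosomal protein genes, 1685 of the 13605 tested features rose and 3541 fell. With the replicate block, no trend or 1 library left out, fewer of all tested features rose and fewer fell. The shares of 18.2% and 18.9% therefore do not apply to list counts under these alternatives. Small subunit processing stood out by count, with 30 of 49 risen and 2 fallen (median log2 change 0.21), beside the 18.2% and 18.9% of all tested features. KRR1, an early processing factor, went from 91 ± 2.35 to 187 ± 1.2 FPKM (SD, n = 2; log2 change 1.03, limma adjusted p = 3.63e-04), and UTP3 from 24.8 ± 0.636 to 39.4 ± 1.28 FPKM (0.64, adjusted p = 0.00146). FCF1, an endonuclease-fold protein of the same complex, fell from 55.7 ± 0.575 to 26.5 ± 0.902 FPKM (-1.04, adjusted p = 4.30e-04). NOP9, named after its value was seen as the other gene that fell, went from 11.5 ± 0.462 to 9.53 ± 0.427 FPKM (adjusted p = 0.033; 0.0675 to 0.145 with any 1 library left out). When libraries were scaled without mitochondrial and ribosomal protein genes, 14 of the 49 rose and 3 fell, and with 1 library left out 5 to 16 rose.

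Among other large subunit factors 16 of 48 rose and 2 fell (median 0.13). With 1 library left out 4 to 8 rose, 4 without control replicate 1, and with scaling without mitochondrial and ribosomal protein genes 7 rose and 4 fell. The helicase gene DDX10 rose from 31.8 ± 0.956 to 54.1 ± 3.74 FPKM (log2 change 0.75, limma adjusted p = 0.002) and DDX18 from 32.7 ± 0.177 to 44 ± 0.565 FPKM (0.42, adjusted p = 0.00249). SDAD1 fell from 30.3 ± 0.927 to 21.5 ± 0.753 FPKM (-0.47, adjusted p = 0.00357). NOP53, named after its value was seen, fell from 623 ± 5.97 to 469 ± 38.2 FPKM (-0.41, adjusted p = 0.00943; 0.0719 and 0.0684 without control replicate 1 or 2).

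Of 17 other RNA polymerase I genes 6 rose and 1 fell. Leaving out 1 library left 2 to 4 rises, with 2 without control replicate 2 or knockdown replicate 2, and the replicate block or a fit with no trend left 3. POLR2L, a small subunit common to the nuclear polymerases, rose from 111 ± 1.07 to 154 ± 6.78 FPKM (log2 change 0.46, limma adjusted p = 0.00275), and CAVIN1, also described as a transcript release factor, from 49.6 ± 0.1 to 64.1 ± 0.601 FPKM (0.36, adjusted p = 0.00291). TAF1D, a subunit of the promoter selectivity factor, fell from 110 ± 3.4 to 85.9 ± 2.14 FPKM (-0.36, adjusted p = 0.00472); its locus overlaps MED17, CEP295 and C11orf54. POLR2L overlaps CD151.

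Exosome and RNase MRP genes gave 8 rises and 1 fall in 25, and 4 rises without either control replicate. POP1, the largest protein of RNase MRP, rose from 5.31 ± 0.387 to 11.7 ± 0.284 FPKM (log2 change 1.01, limma adjusted p = 0.00132) and RPP30 from 27.8 ± 0.309 to 37.6 ± 0.614 FPKM (0.42, adjusted p = 0.00274). EXOSC8, a ring subunit of the exosome, fell from 51.9 ± 2.85 to 28.8 ± 1.69 FPKM (-0.83, adjusted p = 0.0017); it overlaps ALG5 and SUPT20H. Of 13 further small nucleolar RNP genes 4 rose and 2 fell. SNU13, the protein that nucleates the box C/D particle, rose from 174 ± 0.0735 to 202 ± 5.12 FPKM (0.22, adjusted p = 0.0115) and the H/ACA assembly factor gene SHQ1 from 12.3 ± 0.764 to 15.5 ± 0.928 FPKM (0.32, adjusted p = 0.0253). The assembly factor genes ZNHIT6 (7 ± 0.0964 to 5.43 ± 0.0712 FPKM, adjusted p = 0.0165) and ZNHIT3 (52.8 ± 0.908 to 45.7 ± 0.968 FPKM, adjusted p = 0.0176; named after its value was seen) fell. RUVBL2 (104 ± 1.65 to 118 ± 5.55 FPKM, adjusted p = 0.0413) and NAF1 (14 ± 0.237 to 16 ± 0.375 FPKM, adjusted p = 0.0392), also named after their values were seen, rose. All 6 calls were lost with libraries left out: SNU13 without control replicate 1 or 2 (0.0816 and 0.0829), SHQ1 and ZNHIT3 without either control or without knockdown replicate 2 (0.067 to 0.116 and 0.0633 to 0.104), RUVBL2 likewise (0.102 to 0.182), and ZNHIT6 and NAF1 without any 1 library (0.0619 to 0.0863 and 0.0888 to 0.161).

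Beyond these, 4 of 12 further MYC network genes rose and 1 fell; without either control replicate 1 rose. MXD4, a relative of MXD1, rose from 20.4 ± 0.485 to 31.7 ± 0.576 FPKM (SD, n = 2; log2 change 0.61, limma adjusted p = 0.00145) and was called under all 14 alternatives. FBXW7, the ubiquitin ligase subunit that marks MYC for degradation, rose from 4.57 ± 0.183 to 7.02 ± 0.909 FPKM (0.52, adjusted p = 0.0168), and PIM1, a kinase that acts with MYC, from 8.27 ± 0.958 to 12.4 ± 1.79 FPKM (0.53, adjusted p = 0.0286). MLXIP, a partner of the MAX-like protein MLX and named after its value was seen, rose from 9.66 ± 0.158 to 11.5 ± 0.0762 FPKM (0.23, adjusted p = 0.0227; 0.0886 to 0.108 with any 1 library left out). MYCL, the third MYC family gene and named after its value was seen, fell from 6.85 ± 0.398 to 4.5 ± 0.0855 FPKM (-0.51, adjusted p = 0.00691). The FBXW7 call was lost without either control or knockdown replicate 1 (0.0517 to 0.0922), the PIM1 call without either control or knockdown replicate 2 (0.0692 to 0.129), and the MYCL call without control replicate 1 (0.0504).

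The lists outside the nucleolus had median changes close to that of all tested features. RNA polymerase III genes gave 2 rises and 3 falls in 21, with a median log2 change of 0.02, and 1 rise without either control replicate. Its alternative subunit genes moved apart: POLR3G rose from 21.4 ± 1.13 to 29.4 ± 0.92 FPKM (0.44, limma adjusted p = 0.00558), while POLR3GL fell from 29.3 ± 0.266 to 23.3 ± 0.36 FPKM (-0.32, adjusted p = 0.00601; 0.0523 without control replicate 2). POLR3C fell from 14.6 ± 0.295 to 10.5 ± 0.877 FPKM (-0.44, adjusted p = 0.0105; 0.0713 and 0.0634 without control replicate 1 or 2). The factor gene GTF3A, named after its value was seen, fell from 76.2 ± 0.909 to 69 ± 2.1 FPKM (-0.14, adjusted p = 0.0458; 0.0582 to 0.192 with any 1 library left out).

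Of 33 known MYC targets outside the nucleolus 7 rose (21.2%) and 4 fell (12.1%), beside 18.2% and 18.9% of all tested features, also with a median of 0.02. Without either control replicate 2 rose and 1 fell, and with scaling without mitochondrial and ribosomal protein genes 6 rose and 8 fell. TFRC, the transferrin receptor, rose from 36.4 ± 1.38 to 48.5 ± 1.71 FPKM (0.40, adjusted p = 0.0053) and NME1 from 263 ± 11 to 346 ± 6.23 FPKM (0.40, adjusted p = 0.00406). SHMT2, a mitochondrial enzyme of serine metabolism, fell from 182 ± 7.09 to 126 ± 2.89 FPKM (-0.52, adjusted p = 0.00211). The other falls, named after their values were seen, were those of PPAT (31.8 ± 0.181 to 27.4 ± 0.541 FPKM, adjusted p = 0.0177), IMPDH2 (340 ± 6.09 to 291 ± 1.88 FPKM, 0.009) and NAMPT (60.5 ± 1.67 to 49.6 ± 1.85 FPKM, 0.0113). Leaving out either control ended these 3 calls (0.0578 to 0.0975), and that of PPAT was also lost without knockdown replicate 2 (0.0681).

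**Figure D5:**
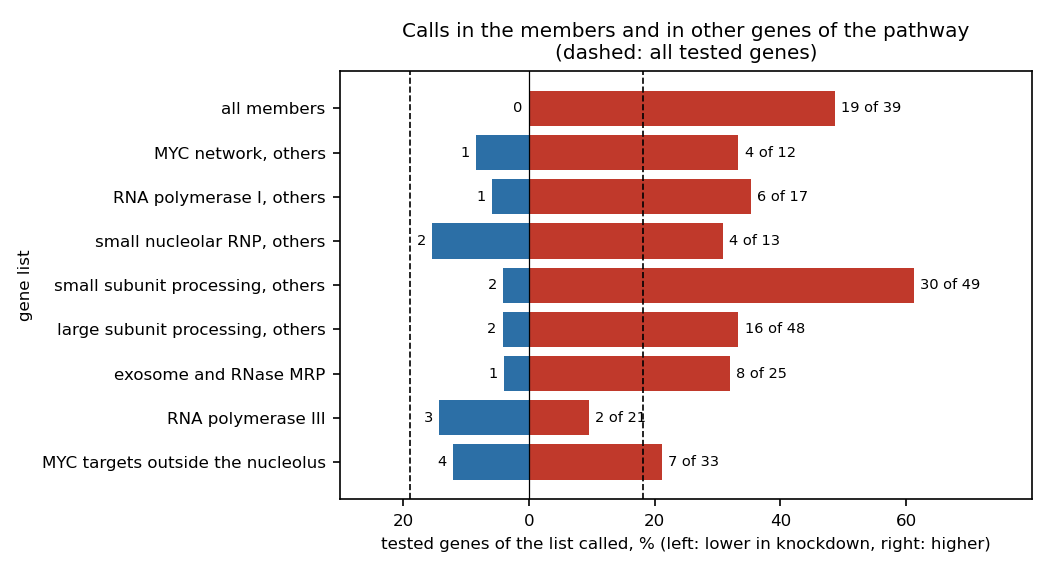
Share of tested genes called (x axis; right, higher in knockdown; left, lower) for the 39 tested members and for 8 lists of other genes (y axis), with counts beside the bars; dashed lines mark 18.2% and 18.9% of all tested features. For rises, small subunit processing has the longest bar with 30 of 49 and RNA polymerase III the shortest with 2 of 21; for falls, the members have 0 of 39.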

How the data were processed

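Per the labels' protocols, total RNA went into NEBNext Ultra libraries. The authors deposited 1 FPKM table per library; STAR, Cufflinks and GRCh38 are named in the submitters' processing notes. For versions, annotation, strand setting and filters, the sources used here give nothing. From the 60811 rows, 45 second copies of pseudoautosomal genes were dropped and 2347 values under 1e-9 were set to 0. Starts in the files count from 0, so 1 was added. Low FPKM values of genes with 1 GENCODE release 29 transcript of at least 1500 bases fell on whole fragments within 0.1 for 76.7% to 79.2%, which gave the depth.

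FPKM values are no counts, so limma 3.58.1 (R 4.3.3, eBayes with trend) was run on log2(FPKM + 1) for features with a mean of at least 1 FPKM. This scale understates changes of low genes. P-values were adjusted over 13605 features by Benjamini-Hochberg. The fit was also run on simulated data with far fewer changed genes than were called here, so that run is no check on these counts. The members and lists were chosen with earlier results of these data known. Named genes are all members, ARID1A and the 3 called genes with the largest absolute log2 change of each other list; a few genes outside this rule are marked as named after their values were seen. Alternatives varied the pseudocount, filter, scaling, trend, replicate block and libraries. The values of 1 gene of the RNA polymerase III list are not reported here.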

Additional observations from a re-analysis of the deposited data

How the results depend on the processing

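The ARID1A call held under all 14 alternatives. All tested genes called were 5046, and 2786 with no filter; leaving out 1 library gave 1900 to 3259. Members called higher numbered 19, against 11 with no filter, 11 with the sum without mitochondrial and ribosomal protein genes and 12 with no trend, and 6 to 13 with 1 library left out. Members called lower were 0, against 3 with that sum (MXI1, FBL and NPM1), 1 under quantile normalization (FBL) and 1 with no trend (UTP20). The median log2 change of members, 0.14, became 0.11 with libraries rescaled to the same sum, 0.06 with the sum without mitochondrial and ribosomal protein genes and 0.11 under quantile normalization. Of the other pathway genes, 77 were called higher, 38 with no filter, 44 with that sum and 20 to 48 with 1 library left out. With MXD3 and MXD4 added to the antagonists, a choice made after seeing the data, the difference in the MYC ratio became 0.13 from 0.48. The E-box share of 30.3% became 51.5% with the wider motif. The cause of these shifts was not tested. Fewer libraries leave fewer degrees of freedom, and the part of this in the shifts was not tested either.

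Under the sum without mitochondrial and ribosomal protein genes the sign turned for MNT (-0.02), POLR1A (-0.01), TCOF1 (-0.02), RRP12 (-0.03), DDX21 (-0.01) and NOP58 (0.00), and the small nucleolar RNP median became 0.00. With 1 library left out, the log2 change ran from 0.00 to 0.44 for MAX, from -0.05 to 0.00 for UBTF, from -0.04 to 0.01 for DKC1 and from -0.11 to 0.01 for GAR1, with a turned sign at the end nearest 0 or above it. None of these was called where its sign turned.

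The labels do not say whether replicate numbers pair the samples. Deviations of same-numbered libraries correlated at -0.00993 over genes, so no shared shift was seen. With the replicate block 17 members rose, as NHP2 (adjusted p = 0.0895) and NIP7 (0.0727) were lost. At the estimated depth, 1 FPKM over a transcript of 2 kb stands for 118 to 129 fragments. Features with a mean below 1 FPKM were tested only in the fit with no filter. MYCN, at 0 in all 4 libraries, was tested in no fit.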
